A study of Homo sapiens with 6 samples.

Results

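The 10 genes described here mark the 2 ends of the epithelial-mesenchymal transition (EMT) and were followed in H2170, a long-established line grown from a squamous cell carcinoma of the human lung. They are the transcription factor genes SNAI1, SNAI2, ZEB1, ZEB2 and TWIST1, the mesenchymal products VIM and FN1, and the epithelial genes EPCAM, ESRP1 and GRHL2. They were chosen by symbol, and each symbol matched a single gene ID among the 61487 gene IDs of the count table. The cells expressed wild-type ACK1 fused to GFP (ACK1 WT), ACK1 with the change called IDRmut fused to GFP (ACK1 IDRmut), or GFP alone (Control), with 2 libraries per group and 6 in all. The gene of ACK1, a cytoplasmic tyrosine kinase, is TNK2. IDRmut is not spelled out in the labels, which list no residues; IDR is read here as intrinsically disordered region. All 3 groups share the parental line and the GFP tag. The study asked how ACK1 condensates affect gene regulation, and the labels do not state whether the 2 libraries of a group came from separate cultures. Values of p therefore measure the spread between libraries, which may be technical.

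In EMT, epithelial cells lose the junctions that hold them to their neighbours and take on the cytoskeleton and matrix of migrating cells. The zinc finger proteins of the SNAI and ZEB families and the basic helix-loop-helix protein TWIST1 drive it, largely by repressing epithelial genes through short DNA motifs called E-boxes. GRHL2 activates epithelial genes and represses ZEB1, ESRP1 directs epithelial patterns of alternative splicing, and the microRNAs of the miR-200 family and miR-205 repress ZEB1 and ZEB2 through sites in their 3′ untranslated regions.

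The miR-200 family has 2 seeds, the bases 2 to 8 that pair with a target, and miR-205 has another. The mature sequences below are shown because their matches in ZEB1 and ZEB2 are the best known brake on these genes. They are from RefSeq (GRCh38.p14), run 5′ to 3′ and carry the seed in capitals.
hsa-miR-200b-3p: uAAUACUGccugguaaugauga
hsa-miR-200c-3p: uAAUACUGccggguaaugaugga
hsa-miR-429: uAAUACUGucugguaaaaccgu
hsa-miR-200a-3p: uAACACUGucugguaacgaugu
hsa-miR-141-3p: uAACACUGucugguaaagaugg
hsa-miR-205-5p: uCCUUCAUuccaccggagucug
The letters complementary to the seeds were searched in the 3′ untranslated region of the principal GENCODE 29 transcript of each gene, on the transcribed strand. ZEB1, with 1938 bases there, held 5 matches to CAGTATT (miR-200b, miR-200c and hsa-miR-429), 3 to CAGTGTT (miR-200a and miR-141) and 1 to ATGAAGG (miR-205). Among 2825 transcripts with a region within 25% of that length, 19.2%, 22.6% and 12.8% held at least 1 match to these 3 motifs in that order, and 0.0354% held 5 or more matches to CAGTATT, ZEB1 included. ZEB2, with 5370 bases, held 5 matches to CAGTATT, 4 to CAGTGTT and 0 to ATGAAGG. Of 1176 transcripts near that length, 45.7%, 52.0% and 33.2% held at least 1 match to the motifs in the same order. The sites below, on GRCh38 and in the sense of the transcript, show 1 match of each kind with the complementary letters in capitals. A match is a description of the letters, and binding was not measured.
ZEB1 CAGTATT site, chr10:31527619-31527641 (plus strand): ttgttttatcttatCAGTATTat
ZEB1 CAGTGTT site, chr10:31528032-31528054 (plus strand): aaaatcatcagaatCAGTGTTtg
ZEB1 ATGAAGG site, chr10:31528068-31528090 (plus strand): atatgtggtaacatATGAAGGat
ZEB2 CAGTATT site, chr2:144389051-144389073 (minus strand): gcactaccatacatCAGTATTtt
ZEB2 CAGTGTT site, chr2:144389235-144389257 (minus strand): gcaaaaattttgtaCAGTGTTaa

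Mature microRNAs were not measured by this assay, which captured polyadenylated RNA. Of their host transcripts, MIR200CHG, which spans the genes of miR-200c and miR-141, was listed at 0 counts in all 6 libraries. MIR205HG, which hosts miR-205, had 9.01 and 7.98 CPM in ACK1 WT, 20.2 and 23.9 CPM in ACK1 IDRmut, and 10.9 and 10.5 CPM in Control. CPM are counts scaled to the library size, per 1e6 counts. MIR205HG rose in ACK1 IDRmut relative to Control by 1.04 ± 0.10 (log2 fold change ± SE; adjusted p = 4.5e-07) and was lower in ACK1 WT than in ACK1 IDRmut by a log2 fold change of -1.39 ± 0.10 (adjusted p = 1.6e-08). Here and below, the test is edgeR's quasi-likelihood test in 1 fit of all 6 libraries, with Benjamini-Hochberg adjustment over 16591 tested genes, and the threshold for a call is 0.05. The change of MIR205HG in ACK1 WT relative to Control was smaller, at -0.35 ± 0.11 (adjusted p = 0.023), and DESeq2 did not call it.

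Library totals lay between 19128111 and 33540998 counts, the second ACK1 WT library being the deepest. TNK2 averaged 3564 ± 69.8 CPM in ACK1 WT, 1609 ± 217 CPM in ACK1 IDRmut and 42.1 ± 1.41 CPM in Control (SD, n = 2 each). Reads of the transgene and of endogenous TNK2 could not be separated. Each difference between ACK1 WT and ACK1 IDRmut was measured together with this 2.22-fold difference in TNK2 transcript. The label of a squamous carcinoma was checked against 8 markers, of which 7 reached 1 CPM in every library and PKP1 did not. The summed squamous markers lay at 1272 to 1313 CPM in ACK1 WT, 1731 to 1859 CPM in ACK1 IDRmut and 2594 to 2628 CPM in Control, with KRT14 leading. Summed adenocarcinoma markers and leukocyte markers were at most 0.614 and 0.343 CPM in any library. Fibroblast markers summed to 705 to 716 CPM in ACK1 WT, 925 to 985 CPM in ACK1 IDRmut and 883 to 907 CPM in Control, most of it COL1A2. PDGFRA averaged 29.5, 57.7 and 57.8 CPM and THY1 8.22, 14.9 and 6.64 CPM in the same groups, while COL1A1, COL3A1, DCN, LUM, PDGFRB and FAP stayed under 2 CPM in every library. Endothelial markers summed to 51.2 to 53.2, 99.5 to 103 and 220 to 226 CPM in the same groups, most of it CDH5. The part of these marker shifts in the results was not tested.

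The 10 genes fell into 2 classes of level. VIM, FN1, ZEB1, ZEB2, TWIST1 and SNAI2 passed the filter on low counts, and SNAI1, EPCAM, ESRP1 and GRHL2 did not, with at most 7 counts in any library. The comparison of levels between genes was made per length, as CPM per kilobase of the principal transcript. On that scale VIM stood at 708, 643 and 652 in ACK1 WT, ACK1 IDRmut and Control, and FN1 followed at 29.1, 23.7 and 31.5. ZEB1 had 8.96, 9.47 and 11.3 CPM per kilobase, TWIST1 had 8.83, 7.68 and 8.09, ZEB2 had 2.16, 1.12 and 1.62, and SNAI2 had 1.44, 0.630 and 0.429, in the same order of groups. ZEB1 and TWIST1 did not differ beyond their spread in ACK1 WT, where the TWIST1 libraries lay within the range of the ZEB1 libraries. The order of close neighbours also depended on the length used. Over all annotated exon bases, TWIST1 stood above ZEB1 in ACK1 WT (7.24 and 5.62) and ACK1 IDRmut (6.29 and 5.94), and SNAI2 stood above ZEB2 in ACK1 WT (1.03 and 0.822) and ACK1 IDRmut (0.451 and 0.426).

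**Figure D1:**
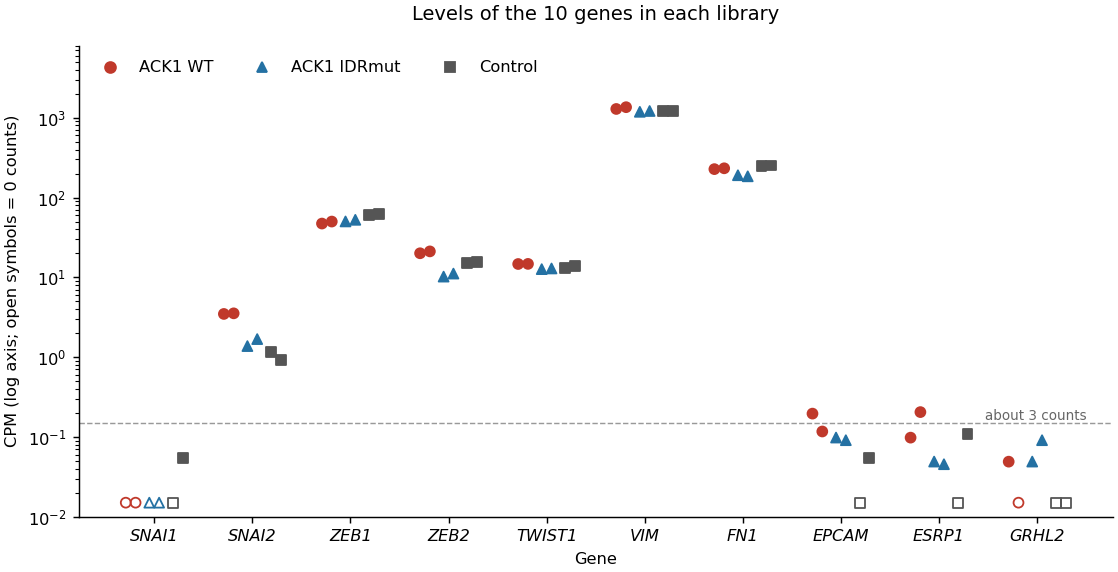
CPM of each of the 10 genes (horizontal axis) in each library on a log axis, with ACK1 WT as circles, ACK1 IDRmut as triangles and Control as squares; open symbols stand for 0 counts and the dashed line marks about 3 counts. SNAI1, EPCAM, ESRP1 and GRHL2 lie at or near that line or at 0 in every library; heights are not divided by length, so they compare libraries within a gene.

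The epithelial members were close to undetected in this line. EPCAM, a surface glycoprotein of epithelial cells (ENSG00000119888; GRCh38 chromosome 2, 47345158 to 47387601, plus strand), had 4 and 4 counts in ACK1 WT, 2 and 2 in ACK1 IDRmut, and 0 and 1 in Control. Pooled, these are 0.147 CPM in ACK1 WT (exact 95% Poisson interval 0.0633 to 0.289), 0.0944 CPM in ACK1 IDRmut (0.0257 to 0.242) and 0.0261 CPM in Control (0.000661 to 0.145), and the 3 intervals overlap. ESRP1 (ENSG00000104413; chromosome 8, 94641074 to 94707466, plus strand) had 2 and 7 counts in ACK1 WT, 1 and 1 in ACK1 IDRmut, and 0 and 2 in Control. GRHL2 (ENSG00000083307; chromosome 8, 101492432 to 101669726, plus strand) had 1 and 0 counts in ACK1 WT, 1 and 2 in ACK1 IDRmut, and 0 in each Control library, which allows up to 0.0783 CPM over that group. With the filter removed, edgeR's quasi-likelihood test gave adjusted p between 0.36 and 1 for these 3 genes and SNAI1 in the 3 comparisons, so no difference was detectable at this depth. The libraries were amplified by PCR and carry no molecular identifiers, so these intervals and floors cover counting error only.

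SNAI1, the founding Snail factor of EMT (ENSG00000124216; chromosome 20, 49982999 to 49988886, plus strand), had 0 counts in both ACK1 WT libraries, in both ACK1 IDRmut libraries and in the first Control library, and 1 count in the second. A floor of 3 counts is 0.0549 CPM over the ACK1 WT group and 0.0708 CPM over the ACK1 IDRmut group. The upper ends of the exact 95% Poisson intervals are 0.0676 and 0.0871 CPM. Its paralogue SNAI2 was the Snail gene detected. Per length, SNAI2 stood at least 44.4-fold above SNAI1 in ACK1 WT and at least 15.05-fold above it in ACK1 IDRmut, from a floor of 3 counts over each group, and 27.8-fold above it in Control (95% counting interval 4.71 to 1124).

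The balance between the classes is large in every group. VIM exceeded EPCAM per length 8386-fold in ACK1 WT (95% counting interval 4256 to 19425), 11741-fold in ACK1 IDRmut (4585 to 43093) and 43069-fold in Control (7730 to 1.70e+06). ZEB1 and GRHL2, which repress each other in other epithelial cells, stood 2583-fold apart in ACK1 WT (463 to 102071), 701-fold in ACK1 IDRmut (240 to 3404) and at least 756-fold in Control. The intervals overlap between groups, since each rests on between 0 and 8 counts of the epithelial gene. In a bulk culture, fewer cells of a type and less RNA per cell cannot be told apart.

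Of the 6 members tested, 5 were called in ACK1 WT relative to Control, SNAI2, ZEB2 and VIM higher and ZEB1 and FN1 lower. Over all tested genes 35% were called in that comparison, 17.4% higher and 17.6% lower (22% by DESeq2). The 5 became 3 without Control library 1, Control library 2 or ACK1 WT library 2, and 4 without ACK1 WT library 1. In ACK1 IDRmut relative to Control, 3 of 6 were called, ZEB1, ZEB2 and FN1, all lower, against 31.6% of all tested genes, 15.6% higher and 15.9% lower (19.8% by DESeq2). In ACK1 WT relative to ACK1 IDRmut, 4 of 6 were called, SNAI2, ZEB2, VIM and FN1, all higher, against 26.5% of all tested genes, 14.2% higher and 12.3% lower (15.2% by DESeq2). The comparisons with Control share the same Control libraries. The libraries of the 2 groups did not overlap for any of the 6 genes in any of the 3 comparisons, which also held for 69.2%, 63.3% and 61.5% of all tested genes. The median log2 fold change over all tested genes was 0.0017, 0.0040 and 0.00068 in the 3 comparisons.

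**Figure D2:**
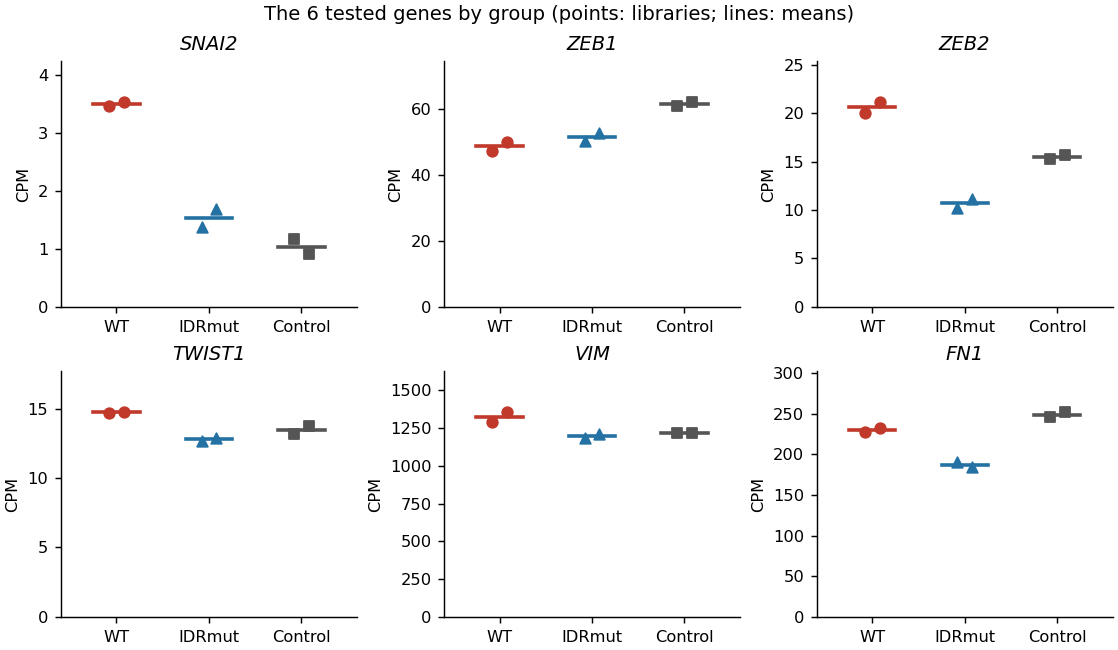
CPM (vertical axes, from 0) of the 6 tested genes in ACK1 WT, ACK1 IDRmut and Control, left to right; points are libraries and lines are means of 2 libraries. SNAI2 and ZEB2 are highest in ACK1 WT, ZEB2 and FN1 are lowest in ACK1 IDRmut, and ZEB1 is highest in Control.

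ZEB2 was higher with ACK1 WT and lower with ACK1 IDRmut than with GFP alone. It encodes a zinc finger and homeodomain repressor that binds paired E-boxes and SMAD proteins (ENSG00000169554; chromosome 2, 144364364 to 144524583, minus strand). Its level was 20.03 and 21.1 CPM in ACK1 WT, 10.2 and 11.1 CPM in ACK1 IDRmut, and 15.3 and 15.7 CPM in Control. Control lay between the ACK1 groups, and no group touched another. ZEB2 rose 1.33-fold in ACK1 WT over Control (log2 fold change 0.42 ± 0.08 SE; adjusted p = 0.00055 by edgeR's quasi-likelihood test) and fell to 0.691 of the Control level in ACK1 IDRmut (-0.53 ± 0.09; adjusted p = 0.00025). ACK1 WT exceeded ACK1 IDRmut 1.93-fold (0.95 ± 0.08; adjusted p = 2.3e-07). All 3 calls held in each alternative that was run, with adjusted p up to 0.017. Other annotated genes overlap 5.18% of the ZEB2 exon bases, among them the antisense gene ZEB2-AS1, which had at most 2 counts in a library.

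ZEB1, the paralogue of ZEB2 and a repressor of CDH1 and of the miR-200 genes, was lower in both ACK1 groups (ENSG00000148516; chromosome 10, 31318495 to 31529814, plus strand). It had 47.2 and 50.0 CPM in ACK1 WT, 50.2 and 52.6 CPM in ACK1 IDRmut, and 60.7 and 62.0 CPM in Control. The ACK1 groups lie close together and below both Control libraries. ZEB1 fell by 0.33 ± 0.05 on the log2 scale in ACK1 WT (adjusted p = 9.4e-05, edgeR quasi-likelihood test) and by 0.25 ± 0.05 in ACK1 IDRmut (adjusted p = 0.0014). Between ACK1 WT and ACK1 IDRmut the log2 fold change was -0.08 ± 0.05, with a 95% interval of -0.19 to 0.04 and an adjusted p of 0.33. ZEB1-AS1, which overlaps 4.23% of the exon bases, had 52 to 113 counts per library.

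The ratio of ZEB2 to ZEB1 separated the 3 groups. The ratio of their CPM was 0.424 and 0.423 in ACK1 WT, 0.204 and 0.212 in ACK1 IDRmut, and 0.252 and 0.253 in Control. The 2 libraries of each group lie close together, and no group touches another. A ratio within a library does not depend on how the libraries were scaled.

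SNAI2, which encodes the repressor Slug, showed the largest fold change of the 6 tested members in ACK1 WT (ENSG00000019549; chromosome 8, 48917604 to 48921740, minus strand). It had 3.48 and 3.54 CPM in ACK1 WT, from 71 and 121 counts, against 1.37 and 1.68 CPM in ACK1 IDRmut, from 28 and 37 counts, and 1.17 and 0.914 CPM in Control, from 23 and 17 counts. Both ACK1 WT libraries lie above all others, and ACK1 IDRmut lies just above Control. SNAI2 rose 3.35-fold in ACK1 WT over Control (log2 fold change 1.75 ± 0.22 SE; adjusted p = 8.2e-06, edgeR quasi-likelihood test) and was 2.29-fold higher in ACK1 WT than in ACK1 IDRmut (1.19 ± 0.20; adjusted p = 0.00022). In ACK1 IDRmut over Control the log2 fold change was 0.55 ± 0.27, with a 95% interval of -0.01 to 1.12 and an adjusted p of 0.13. The counts of 17 to 37 in the lower groups set the width of these errors.

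TWIST1, a basic helix-loop-helix factor of mesoderm (ENSG00000122691; chromosome 7, 19020991 to 19117672, minus strand), was not called in any comparison. It had 14.7 and 14.7 CPM in ACK1 WT, 12.7 and 12.9 CPM in ACK1 IDRmut, and 13.2 and 13.8 CPM in Control. The log2 fold change was 0.13 ± 0.08 in ACK1 WT over Control (95% interval -0.05 to 0.30, adjusted p = 0.26) and -0.07 ± 0.09 in ACK1 IDRmut over Control (-0.26 to 0.11, adjusted p = 0.57), by edgeR's quasi-likelihood test. Between ACK1 WT and ACK1 IDRmut it was 0.20 ± 0.08, with an unadjusted interval of 0.03 to 0.38 and an adjusted p of 0.081.

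FN1 encodes fibronectin, the matrix glycoprotein that cells bind through integrins (ENSG00000115414; chromosome 2, 215360440 to 215436172, minus strand). It had 227 and 233 CPM in ACK1 WT, 190 and 184 CPM in ACK1 IDRmut, and 246 and 252 CPM in Control. ACK1 IDRmut is the low group, with ACK1 WT between it and Control. FN1 fell to 0.753 of Control in ACK1 IDRmut (log2 fold change -0.41 ± 0.04 SE; adjusted p = 3.0e-07, edgeR quasi-likelihood test) and was 1.23-fold higher in ACK1 WT than in ACK1 IDRmut (0.30 ± 0.04; adjusted p = 1.6e-05). Its fall in ACK1 WT was small, at -0.11 ± 0.04 (adjusted p = 0.025). That call did not hold with DESeq2 (adjusted p = 0.077), with upper-quartile scaling (0.11), without the low-count filter (0.066), or without Control library 1 (0.066), Control library 2 (0.18), ACK1 WT library 1 (0.21) or ACK1 WT library 2 (0.079). Gene counts do not show whether the alternatively spliced exons of FN1 were used differently.

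VIM encodes vimentin, the intermediate filament protein of mesenchymal cells (ENSG00000026025; chromosome 10, 17228259 to 17237593, plus strand), and was the member with the most counts, between 22672 and 46382 per library. Its level was 1289 and 1357 CPM in ACK1 WT, 1187 and 1215 CPM in ACK1 IDRmut, and 1217 and 1219 CPM in Control. ACK1 WT is the high group, and the other groups lie close together. VIM rose 1.09-fold in ACK1 WT over Control (log2 fold change 0.12 ± 0.03 SE; adjusted p = 0.012, edgeR quasi-likelihood test) and was 1.10-fold higher than in ACK1 IDRmut (0.14 ± 0.03; adjusted p = 0.0055). The call over Control did not hold without Control library 1 (adjusted p = 0.096), Control library 2 (0.085) or ACK1 WT library 2 (0.29), and the call over ACK1 IDRmut did not hold without ACK1 WT library 2 (0.19). In ACK1 IDRmut over Control the log2 fold change was -0.02 ± 0.03 (95% interval -0.09 to 0.05, adjusted p = 0.69), and its sign turned under upper-quartile scaling. Annotated genes overlap 24.43% of the VIM exon bases, chiefly VIM-AS1, with 44 to 106 counts per library.

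The ratio of FN1 to VIM, both mesenchymal products, was 0.176 and 0.171 in ACK1 WT, 0.160 and 0.152 in ACK1 IDRmut, and 0.202 and 0.207 in Control. Control was highest and ACK1 IDRmut lowest, with no overlap between groups.

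**Figure D3:**
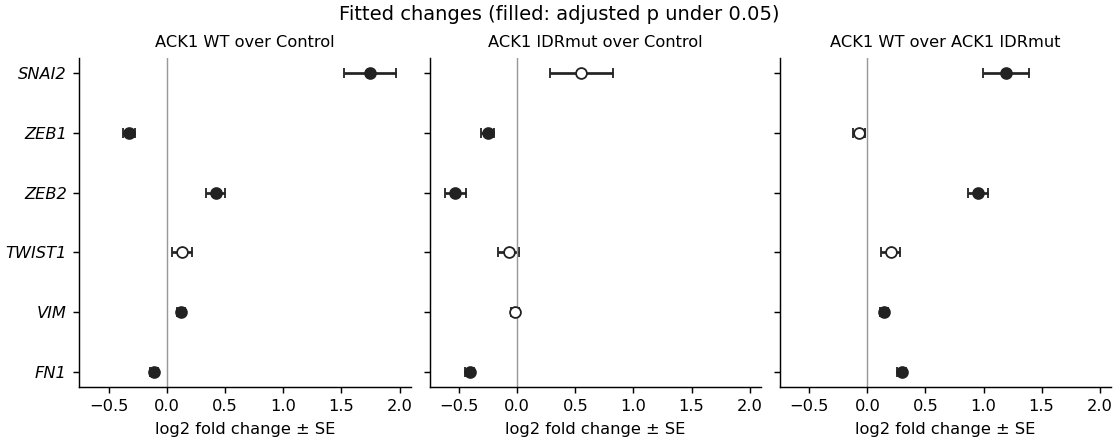
Fitted log2 fold change ± SE (horizontal axes) of the 6 tested genes in ACK1 WT over Control, ACK1 IDRmut over Control and ACK1 WT over ACK1 IDRmut, left to right; filled points have an adjusted p under 0.05. ZEB2 lies right of 0 in the left panel and left of 0 in the middle panel, and SNAI2 has the largest change in the left and right panels.

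By likeness of profile over the 6 libraries, taken as the Euclidean distance of centred log2 CPM among the 10908 genes that averaged 5 CPM or more, the nearest genes were named for the 3 members with the largest fold changes at that level. Nearest to ZEB2 were ENSG00000266709 (distance 0.110), the ubiquitin ligase gene RNF144A (0.119) and ID2 (0.129), which encodes an inhibitor of basic helix-loop-helix factors. ID2 averaged 166 CPM in ACK1 WT, 87.6 CPM in ACK1 IDRmut and 121 CPM in Control. Nearest to FN1 were RFX1 (0.0489), MSL3 (0.0580) and SH3TC2 (0.0588), and nearest to ZEB1 were FAM221A (0.0494), PHKA2 (0.0502) and TMEM164 (0.0528).

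Genes of the same programmes were described from lists of known function, 183 distinct genes of which 142 were tested. The list counts below are to be read beside the shares over all tested genes. In ACK1 WT over Control 17.4% were called higher and 17.6% lower. The shares were 15.6% and 15.9% in ACK1 IDRmut over Control, and 14.2% and 12.3% in ACK1 WT over ACK1 IDRmut. No test over a list was run. Among 13 other EMT transcription factors, 5 stayed under 1 CPM in every library (TWIST2, SNAI3, FOXC2, GSC and KLF8). Of the 8 tested, 5 were higher and 2 lower in ACK1 WT over Control (median log2 fold change 0.25), 2 were higher and 2 lower in ACK1 IDRmut over Control (median -0.07), and 3 were higher and 1 lower in ACK1 WT over ACK1 IDRmut (median 0.04). The chromatin protein gene HMGA2 averaged 42.5 ± 0.863 CPM in ACK1 WT, 21.1 ± 0.929 CPM in ACK1 IDRmut and 20.2 ± 0.431 CPM in Control, and rose in ACK1 WT over Control by 1.07 ± 0.06 (log2; adjusted p = 9.5e-10). Its relative HMGA1 rose in ACK1 WT (0.35 ± 0.04) and fell in ACK1 IDRmut (-0.53 ± 0.05). PRRX1, a homeobox gene of mesenchyme, fell in ACK1 WT (-0.35 ± 0.04), and SOX9 rose in ACK1 WT (0.29 ± 0.05) and in ACK1 IDRmut (0.25 ± 0.05).

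Of 26 mesenchymal structural genes, 17 had 5 CPM or more in every library. Another 6 stayed under 1 CPM in every library (MMP9, COL3A1, POSTN, CTHRC1, LUM and DCN). Of 22 tested, 11 were higher and 5 lower in ACK1 WT over Control (median 0.23), 13 were higher and 3 lower in ACK1 IDRmut over Control (median 0.24), and 5 were higher and 10 lower in ACK1 WT over ACK1 IDRmut (median -0.15). The genes higher over Control in both ACK1 groups include COL1A1 and COL6A3, which averaged 0.467 and 0.391 CPM in Control. COL1A1 and COL6A3 passed the low-count filter through the ACK1 libraries and could hardly be called lower than Control. The counts and medians of this list over Control thus lean upward. TGFBI, a matrix protein gene induced by TGF-beta, averaged 383 ± 0.186 CPM in ACK1 WT, 227 ± 5.41 CPM in ACK1 IDRmut and 127 ± 3.98 CPM in Control. It rose in ACK1 WT (1.59 ± 0.04) and ACK1 IDRmut (0.83 ± 0.04), while TNC, the matrix protein tenascin C, fell in both (-0.74 ± 0.04 and -0.42 ± 0.04). MMP2, a matrix metalloproteinase, also fell in both (-0.63 ± 0.04 and -0.94 ± 0.04).

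Epithelial regulators were in part silent. Of 13 epithelial transcription factors, 7 stayed under 1 CPM in every library, among them GRHL3, OVOL1, OVOL2, ELF5, FOXA2 and CDX2. Of 6 tested, 4 were higher and 1 lower in ACK1 WT over Control (median 0.32), 2 were higher and 2 lower in ACK1 IDRmut over Control (median 0.28), and 2 were higher and 2 lower in ACK1 WT over ACK1 IDRmut (median -0.02). The ETS factor gene EHF averaged 143 ± 2.09 CPM in ACK1 WT, 203.5 ± 1.84 CPM in ACK1 IDRmut and 117.5 ± 2.45 CPM in Control, and rose in ACK1 WT (0.28 ± 0.04) and ACK1 IDRmut (0.79 ± 0.04). Its relative ELF3 rose more at a lower level (1.46 ± 0.22 and 2.36 ± 0.20). FOXA1 rose in ACK1 WT (0.34 ± 0.09) and fell in ACK1 IDRmut (-0.35 ± 0.10), and KLF5 fell in both (-0.25 ± 0.04 and -0.20 ± 0.04).

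Among 27 epithelial junction and polarity genes, 9 stayed under 1 CPM in every library, among them CDH1, CLDN3, CLDN7, CRB3 and RAB25, and 10 reached 5 CPM in all. CDH1, the gene of E-cadherin, averaged 0.0537 CPM in ACK1 WT, 0.0682 CPM in ACK1 IDRmut and 0.0269 CPM in Control. Of 19 tested, 13 were higher and 0 lower in ACK1 WT over Control (median 0.41; 15 at an unadjusted p under 0.05, 10 called by DESeq2), and 12 were higher and 3 lower in ACK1 IDRmut over Control (median 0.36). In ACK1 WT over ACK1 IDRmut, 9 were higher and 4 lower (median 0.29; 7 called by DESeq2). The 13 include CLDN7, LSR and AP1M2, which averaged 0.0523, 0.551 and 0.518 CPM in Control. These genes passed the low-count filter through the ACK1 libraries and could hardly be called lower than Control. The counts and medians over Control thus lean upward. CLDN1, a tight junction claudin, rose in ACK1 WT (0.32 ± 0.04) and ACK1 IDRmut (0.69 ± 0.04), as did DSP, the desmosomal plaque protein desmoplakin (0.24 ± 0.05 and 0.70 ± 0.05). CLDN4 averaged 153 ± 4.27 CPM in ACK1 WT, 96.3 ± 10.7 CPM in ACK1 IDRmut and 130 ± 6.52 CPM in Control, and it rose in ACK1 WT (0.23 ± 0.06) and fell in ACK1 IDRmut (-0.43 ± 0.06). AP1M2, an adaptor subunit of epithelial sorting, averaged 3.55 ± 0.444 CPM in ACK1 WT, 1.41 ± 0.124 CPM in ACK1 IDRmut and 0.518 ± 0.200 CPM in Control, and rose in both (2.77 ± 0.27 and 1.43 ± 0.34).

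E-boxes, the letters CACCTG on either strand and thus also CAGGTG, were searched in RefSeq promoter windows of 300 bases, from 250 before to 50 after each start. Windows of 4 members were searched, 10 windows in all, 7 of them for ZEB1. SNAI2, ESRP1 and GRHL2 were left out of the search, so their windows were not read for E-boxes. For SNAI1, TWIST1 and EPCAM no window was at hand. The windows of ZEB2, FN1 and VIM held none, and 2 of the ZEB1 windows did, with 3 and 1 matches. Over 35116 windows of all genes, 20.6% held at least 1. Of the junction genes, only CLDN4, CLDN7 and RAB25 were searched. CLDN4 had 0 matches and RAB25 had 2. CLDN7 had a window with 5 matches and another with 0. CLDN7 averaged 0.352 CPM in ACK1 WT, 0.594 CPM in ACK1 IDRmut and 0.0523 CPM in Control. RAB25 averaged 0.0391, 0 and 0 CPM and CLDN4 averaged 153, 96.3 and 130 CPM in the same groups. The windows with most matches are shown because E-boxes are where SNAI and ZEB proteins bind; matches are in capitals, the build is GRCh38.p14, and ZEB1 is read from the plus strand and CLDN7 from the minus strand. Binding was not measured, and the letters alone show no site in use. The STAT motif TTCNNNGAA, present in 7.66% of all windows, was not among the letters of the 10 member windows searched. That absence does not extend to SNAI2, ESRP1 or GRHL2, whose windows were not searched, or to SNAI1, TWIST1 and EPCAM, which had none.
ZEB1 window, chr10:31318966-31319265: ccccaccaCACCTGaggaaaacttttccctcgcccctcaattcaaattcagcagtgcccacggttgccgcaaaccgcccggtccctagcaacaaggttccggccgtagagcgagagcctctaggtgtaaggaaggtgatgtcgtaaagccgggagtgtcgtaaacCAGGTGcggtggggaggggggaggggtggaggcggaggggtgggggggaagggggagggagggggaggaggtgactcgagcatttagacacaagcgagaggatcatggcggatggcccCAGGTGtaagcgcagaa
CLDN7 window, chr17:7262429-7262728: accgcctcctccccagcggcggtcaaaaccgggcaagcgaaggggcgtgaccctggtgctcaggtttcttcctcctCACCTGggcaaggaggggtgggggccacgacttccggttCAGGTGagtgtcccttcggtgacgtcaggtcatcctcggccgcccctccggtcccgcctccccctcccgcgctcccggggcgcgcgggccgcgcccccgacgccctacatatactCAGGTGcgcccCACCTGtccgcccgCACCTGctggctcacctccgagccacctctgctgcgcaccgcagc

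Membrane proteases, their inhibitors and simple keratins were the last epithelial list. Of 10 genes, 5 stayed under 1 CPM in every library, among them ST14, PRSS8, SPINT1 and SPINT2. Of 5 tested, 2 were higher and 1 lower in ACK1 WT over Control (median 0.39), 3 were higher and 1 lower in ACK1 IDRmut over Control (median 1.29), and 2 were higher and 3 lower in ACK1 WT over ACK1 IDRmut (median -0.90). The keratins of simple epithelia KRT8 and KRT18 rose in both ACK1 groups. KRT8 averaged 28.2 ± 0.828 CPM in ACK1 WT, 72.4 ± 5.02 CPM in ACK1 IDRmut and 12.0 ± 0.943 CPM in Control, and KRT18 averaged 10.7 ± 0.648, 7.09 ± 1.02 and 1.65 ± 0.179 CPM in the same groups. KRT19 fell in ACK1 WT (-1.27 ± 0.31), and MUC1, a membrane mucin, rose in ACK1 IDRmut (1.29 ± 0.17).

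With ESRP1 close to undetected, its paralogue ESRP2 was the ESRP gene with more reads. ESRP2 averaged 0.801 ± 0.0249 CPM in ACK1 WT, 0.587 ± 0.135 CPM in ACK1 IDRmut and 0.808 ± 0.0773 CPM in Control and was not called, with adjusted p of 0.99, 0.39 and 0.37 in the 3 comparisons (edgeR quasi-likelihood test). Of 16 splicing regulators tested, 4 were higher and 4 lower in ACK1 WT over Control (median -0.01), 1 was higher and 5 lower in ACK1 IDRmut over Control (median -0.04), and 5 were higher and 3 lower in ACK1 WT over ACK1 IDRmut (median 0.11). RBM24, an RNA-binding regulator of muscle splicing, averaged 21.2 ± 1.21 CPM in ACK1 WT, 11.2 ± 0.406 CPM in ACK1 IDRmut and 10.998 ± 0.874 CPM in Control, and rose in ACK1 WT (0.95 ± 0.09; adjusted p = 2.0e-07). RBM47, which encodes another RNA-binding protein, rose in ACK1 WT (1.08 ± 0.12) and ACK1 IDRmut (0.97 ± 0.13). MBNL3 fell in both (-0.54 ± 0.07 and -0.67 ± 0.08), and MBNL2 rose in ACK1 WT (0.32 ± 0.06).

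The genes whose exons ESRP proteins are known to control were measured only as gene totals, which do not show splicing. Of 14 tested, 4 were higher and 4 lower in ACK1 WT over Control (median 0.03), 3 were higher and 4 lower in ACK1 IDRmut over Control (median -0.01), and 7 were higher and 1 lower in ACK1 WT over ACK1 IDRmut (median 0.10). ENAH, an actin regulator, rose in ACK1 WT (0.72 ± 0.04) and ACK1 IDRmut (0.40 ± 0.04), while the kinase gene SLK fell in both (-0.43 ± 0.04 and -0.27 ± 0.04), as did ARHGEF11 (-0.32 ± 0.05 and -0.51 ± 0.05).

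Of 4 known GRHL2 targets tested, among them CLDN4 and LSR of the junction list, 2 were higher and 0 lower in ACK1 WT over Control (median 0.70; 3 at an unadjusted p under 0.05, 1 called by DESeq2), 1 was higher and 1 lower in ACK1 IDRmut over Control (median 0.51), and 1 was higher and 0 lower in ACK1 WT over ACK1 IDRmut (median 0.21; 2 and 1 by the same criteria). The 2 higher in ACK1 WT over Control are CLDN4 and LSR, already counted with the junction genes. The 1 higher in ACK1 IDRmut over Control is CDH3, which averaged 1.25 ± 0.802 CPM there and 0.463 ± 0.350 CPM in Control. CDH3 and LSR, the latter at 0.551 CPM in Control, passed the low-count filter through the ACK1 libraries. They could hardly be called lower than Control, so the medians of this list over Control lean upward. LSR, a tricellular junction receptor, rose in ACK1 WT (1.15 ± 0.32). Of 6 EPCAM partners and sheddases tested, 2 were higher and 0 lower in ACK1 WT over Control (median 0.04; 3 unadjusted, 1 by DESeq2), 4 were higher and 0 lower in ACK1 IDRmut over Control (median 0.24; 4 and 4), and 0 were higher and 3 lower in ACK1 WT over ACK1 IDRmut (median -0.21; 4 and 2). Among them FHL2 rose in ACK1 IDRmut (0.32 ± 0.04), and the tetraspanin gene CD9 rose there as well (0.15 ± 0.04). The 2 partners higher in ACK1 WT over Control were TSPAN8 and CLDN7, the latter also of the junction list. They averaged 0.207 and 0.0523 CPM in Control and passed the low-count filter through the ACK1 libraries.

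Of 7 fibronectin receptor genes tested, 2 were higher and 3 lower in ACK1 WT over Control (median 0.02), 1 was higher and 4 lower in ACK1 IDRmut over Control (median -0.15), and 3 were higher and 1 lower in ACK1 WT over ACK1 IDRmut (median 0.00). ITGA5, the alpha chain of the classical fibronectin receptor, averaged 38.2 ± 1.43 CPM in ACK1 WT, 32.4 ± 1.42 CPM in ACK1 IDRmut and 17.7 ± 1.19 CPM in Control, and rose in both ACK1 groups (1.11 ± 0.07 and 0.87 ± 0.07). ITGA3, an alpha chain best known for laminin binding, fell in both (-0.72 ± 0.04 and -0.44 ± 0.04), and ITGA4 rose in ACK1 WT (1.89 ± 0.26). Of 5 vimentin partners and related filament genes tested, 1 was higher and 2 lower in ACK1 WT over Control (median -0.13), 1 was higher and 3 lower in ACK1 IDRmut over Control (median -0.41), and 3 were higher and 1 lower in ACK1 WT over ACK1 IDRmut (median 0.14). NES, the filament protein nestin, fell in both ACK1 groups (-0.38 ± 0.05 and -0.73 ± 0.05), as did the lamin gene LMNA (-0.37 ± 0.05 and -0.41 ± 0.05), and PLEC, the linker plectin, fell in ACK1 IDRmut (-0.48 ± 0.05).

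All 10 genes of the SNAIL and ZEB co-repressor list were tested. In ACK1 WT over Control 0 were higher and 6 lower (median -0.14; 6 at an unadjusted p under 0.05, 4 called by DESeq2), and in ACK1 IDRmut over Control 0 were higher and 7 lower (median -0.19; 7 and 6 by the same criteria). In ACK1 WT over ACK1 IDRmut 3 were higher and 0 lower (median 0.04; 4 and 1). AJUBA, a LIM protein that bridges SNAIL to its co-repressors, averaged 160 ± 5.34 CPM in ACK1 WT, 148 ± 2.15 CPM in ACK1 IDRmut and 217 ± 2.10 CPM in Control, falling in both ACK1 groups (-0.44 ± 0.04 and -0.55 ± 0.04). The histone methyltransferase genes EZH2 (-0.29 ± 0.04 and -0.44 ± 0.05) and SUV39H1 (-0.29 ± 0.06 and -0.31 ± 0.06) fell in both as well. Of 10 genes that control the stability of the SNAIL protein, 2 were higher and 2 lower in ACK1 WT over Control (median -0.07), 1 was higher and 3 lower in ACK1 IDRmut over Control (median -0.04), and 1 was higher and 1 lower in ACK1 WT over ACK1 IDRmut (median 0.00). The phosphatase gene CTDSP1 fell in both ACK1 groups (-0.43 ± 0.06 and -0.33 ± 0.06), and the F-box gene FBXL14 rose in both (0.47 ± 0.10 and 0.47 ± 0.10).

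TGF-beta signalling induces SNAI and ZEB genes in many epithelia, and its 12 listed ligand, receptor and SMAD genes were all tested. In ACK1 WT over Control 7 were higher and 4 lower (median 0.16; 4 called by DESeq2), in ACK1 IDRmut over Control 2 were higher and 4 lower (median -0.07), and in ACK1 WT over ACK1 IDRmut 6 were higher and 0 lower (median 0.25; 8 at an unadjusted p under 0.05, 5 called by DESeq2). The ligand gene TGFB2 averaged 73.6 ± 1.03 CPM in ACK1 WT, 49.3 ± 3.54 CPM in ACK1 IDRmut and 45.2 ± 1.53 CPM in Control, and rose in ACK1 WT over Control (0.70 ± 0.06; adjusted p = 2.8e-08). The receptor gene TGFBR2 rose in ACK1 WT (0.50 ± 0.04) and ACK1 IDRmut (0.15 ± 0.05). INHBA, the activin subunit, rose in both (1.37 ± 0.13 and 1.05 ± 0.14), and SKIL, an inhibitor of SMAD proteins, rose in ACK1 WT (0.16 ± 0.05) and fell in ACK1 IDRmut (-0.18 ± 0.05).

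**Figure D4:**
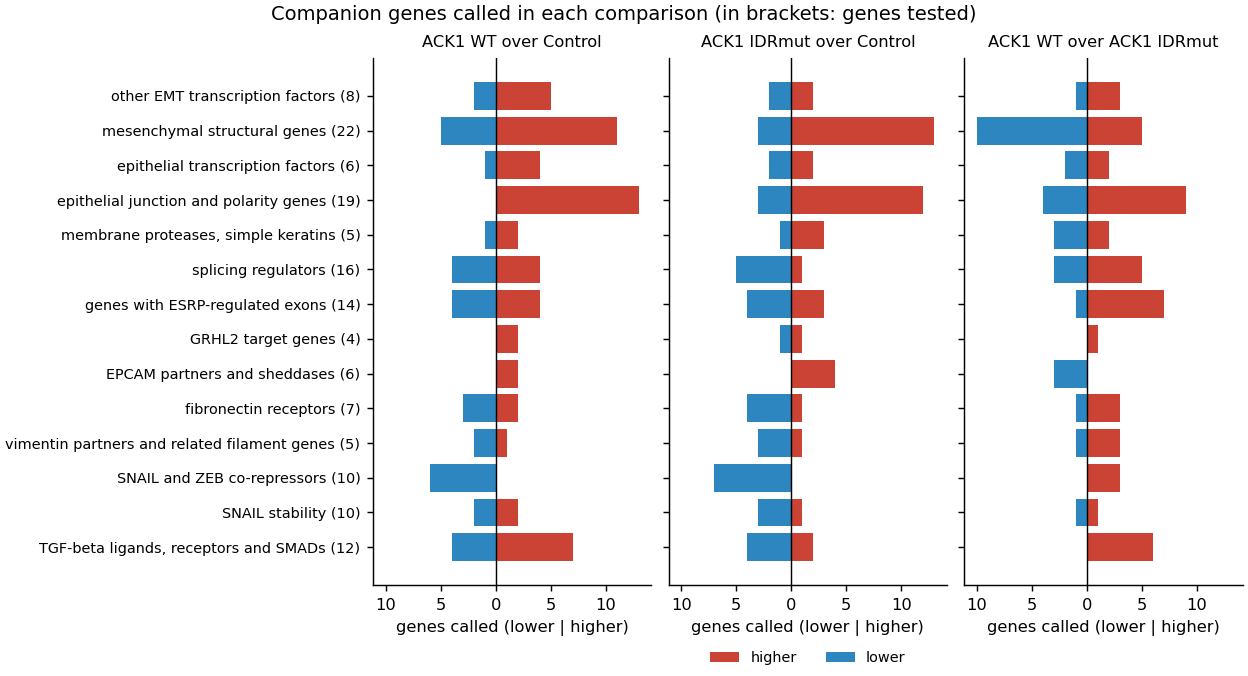
Number of genes called higher (right of 0) and lower (left of 0) in each companion list, with the number tested in brackets, for ACK1 WT over Control, ACK1 IDRmut over Control and ACK1 WT over ACK1 IDRmut. Epithelial junction genes reach 13 higher in the left panel, co-repressors show 6 and 7 lower in the left and middle panels, and mesenchymal structural genes show 10 lower in the right panel. Over all tested genes, 17.4%, 15.6% and 14.2% were called higher in the panels from left to right. The shares called lower were 17.6%, 15.9% and 12.3%.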

How the data were processed

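Polyadenylated RNA of 6 libraries (3 groups of 2) was sequenced after Trizol isolation, random-hexamer priming and PCR, per the labels' protocols. The deposited table holds raw counts per gene; the submitters' processing notes name GRCh38, featureCounts 2.0.1, HISAT2 2.2.1 and SAMtools 1.14. How strand and multiply matched reads were handled, and which annotation release was used, is not given in the sources used here, so reads of overlapping genes cannot be told apart. Of 61487 gene IDs, 61369 matched current names, 105 were named from GENCODE 29 only and 13 had none. Coordinates and lengths come from GENCODE 29, which may not be the authors' release.

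From these counts, edgeR 4.0.16 in R 4.3.3 kept 16591 genes (filterByExpr, minimum count 10, minimum total 15), scaled libraries with TMM and fitted all 6 libraries in 1 model of group means with quasi-likelihood tests. Levels are CPM of the TMM-scaled library, as mean ± SD with n = 2. SE is the absolute log2 fold change divided by the square root of F. Intervals of fold changes are 95%, from t with residual and prior degrees of freedom; intervals of ratios are exact binomial. Group depth was 20033289 and 33540998 counts in ACK1 WT, 20346572 and 21922477 in ACK1 IDRmut, and 20154935 and 19128111 in Control. Within each group the 2 libraries differed beyond counting noise, so they were kept as 2 samples. Alternatives were DESeq2 1.42.0, other scalings, no filter, the 2 groups compared alone, a replicate block and leaving out each library. The procedure was tested on simulated data.

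The members and gene lists were chosen with earlier results of these data known. Named genes are the 10 members, TNK2, up to 4 genes per list with the smallest adjusted p over the 3 comparisons, and the 3 nearest profiles (pseudocount 0.1 CPM) of ZEB2, FN1 and ZEB1. ESRP2, CDH1, MIR200CHG, the antisense genes, single marker genes and genes named as under 1 CPM were chosen after their values were seen, as were the searches for microRNA sites. A few genes that meet the rule for naming are left out of the text.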

Additional observations from a re-analysis of the deposited data

Results flagged for a closer look

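In 4 genes the effect of ACK1 WT over Control differed from the effect of ACK1 IDRmut over Control. The difference between the effects is the ACK1 WT over ACK1 IDRmut comparison itself, and its p comes from the quasi-likelihood test of edgeR, adjusted by Benjamini-Hochberg. It was 1.19 on the log2 scale for SNAI2 (adjusted p = 0.00022), 0.95 for ZEB2 (2.3e-07), 0.14 for VIM (0.0055) and 0.30 for FN1 (1.6e-05). In each of the 4 genes both ACK1 WT libraries lay above both ACK1 IDRmut libraries. Over all tested genes, 26.5% were called in this comparison and the libraries of 61.5% did not overlap. ZEB2 is the member whose effects have opposite signs with both past the threshold. TNK2 transcript also differed between the ACK1 groups, and its part in these differences was not tested.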

How the results depend on the processing

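Of 216 values of the 6 tested members under the alternatives, 204 kept their direction and side of the threshold, 11 lost the call and 1 turned sign. The last was VIM in ACK1 IDRmut over Control under upper-quartile scaling, with a log2 fold change of 0.0104 (adjusted p = 0.86); the 11 are the FN1 and VIM calls listed with those genes. DESeq2 called 3649, 3290 and 2518 genes in ACK1 WT over Control, ACK1 IDRmut over Control and ACK1 WT over ACK1 IDRmut, against 5807, 5237 and 4396 with edgeR; the cause was not tested. Leaving out each library in turn gave 3974 to 7028, 3451 to 5522 and 2590 to 4761 genes, lowest without Control library 1, Control library 1 and ACK1 WT library 2, and 3 to 5, 3 to 3 and 3 to 4 members. Members called in ACK1 WT over Control were 3 without Control library 1, Control library 2 or ACK1 WT library 2. A group left with 1 library is assumed to vary like the others. Deviations of same-numbered libraries correlated at -0.0208, -0.0238 and -0.0294 between the groups, so no effect shared by replicate number was seen. Whether same-numbered libraries were prepared together is not shown by these values. With the replicate block 5440, 4836 and 3966 genes and 5, 3 and 4 members were called. Depth limits SNAI1, EPCAM, ESRP1 and GRHL2, where group sums of 0 to 9 counts leave differences undetectable.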
